A study of Mus musculus with 8 samples.

Results

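H3K9ac, the acetylation of histone H3 at lysine 9 that marks active promoters, was examined at 10 genes of the p53 pathway and its cell cycle inhibitors, out of 21951 protein-coding genes. The members were *Trp53*, *Mdm2*, *Cdkn1a*, *Cdkn1b*, *Cdkn1c*, *Cdkn2a*, *Cdkn2b*, *Cdkn2c*, *Cdkn2d* and *Rb1*, chosen by name, and all were matched. For each gene, the peaks that overlapped 1 kb on either side of any annotated TSS were taken as promoter peaks. BM cells came from C57BL/6 mice that all carried the *NUP98-HOXD13* transgene, a fusion gene that models MDS, and one of the *GFI1* alleles. *GFI1-36S* and *-36N* mice expressed a human *GFI1* cDNA from the murine locus, with serine or asparagine at the variant position, and *GFI1-KD* mice had reduced GFI1 expression. The curcumin mice received 20 mg/kg weekly by i.p. injection. Vehicle mice, labelled as without curcumin, were given DMSO per the methods of the study. Per the study's methods, mice were killed once overt leukaemia or poorer health was seen. Ages of the mice are not given in the sources used here. The 6 libraries comprised 1 vehicle and 1 curcumin library in each of the 3 genotypes. Within a genotype no difference therefore had a replicate check, and the only test across mice was a fit over the 3 pairs, given after the single genotypes.

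The 6 lists held between 20354 and 49213 peaks, and the median promoter peak had between 72 and 163 fragments at its summit. The lowest values of both ranges belonged to the *GFI1-36S* curcumin library, which also stood apart in its cell type markers. It had a promoter peak at 11 of 12 T-cell markers, against 4 to 7 in the other libraries, with a median rank of 26.6 against 0 to 4.8. It had peaks at 1 of 12 neutrophil markers (other libraries 8 to 12), 2 of 12 erythroid markers (5 to 12), 1 of 8 progenitor markers (6 to 8), 1 of 6 monocyte markers (6 in each) and 1 of 8 B-cell markers (2 to 5). Among the progenitor markers without a peak there were *Hoxa9* and *Lmo2*. The neutrophil genes *Elane* and *Mpo* had no peak either. The erythroid gene *Gata1* had none here, but it also had none in the *GFI1-36N* vehicle and *GFI1-KD* curcumin libraries. Y-linked genes had peaks here (*Kdm5d*, *Eif2s3y* and *Uty*) and in no other library, whereas *Xist* had a peak in the other 5. *Cd3e* and *Cd3g*, which encode parts of the T-cell receptor complex, and *Cd2* had a peak in this library and in none of the others. In addition, the treatment written in the name of each *GFI1-36S* list is the reverse of its label, and the label was followed. By their names, the *GFI1-36N* lists come from a +/ki mouse (vehicle) and a ki/ki mouse (curcumin), which the labels do not state. If so, zygosity and treatment cannot be told apart in this pair. Curcumin is compared with vehicle for each genotype on its own, so those comparisons in *GFI1-36N* and *-KD* mice use no *GFI1-36S* library. Comparisons between genotypes do use one and share the doubt about its treatment.

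p53, encoded by *Trp53*, is a transcription factor activated by DNA damage and oncogenic stress, and MDM2 is the ubiquitin ligase that keeps its level low. p53 induces *Cdkn1a*, whose product p21 inhibits cyclin-dependent kinases (CDKs) together with its relatives p27 (*Cdkn1b*) and p57 (*Cdkn1c*). The INK4 proteins p16 (*Cdkn2a*), p15 (*Cdkn2b*), p18 (*Cdkn2c*) and p19 (*Cdkn2d*) inhibit CDK4 and CDK6 and thereby keep RB1, the brake on E2F transcription factors, active. *Cdkn2a* also encodes ARF from an upstream start, and ARF protects p53 by binding MDM2. In haematopoietic cells these genes, apart from *Mdm2*, restrain the division of stem cells and of leukaemic cells.

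Several members have more than one start, and the promoter sequence of each was read before the peaks were compared. RefSeq promoters of GRCm38.p6, 300 bases from 250 before to 50 after a start, were held for 8 of the 10 members at 11 starts. *Cdkn1c* and *Rb1* had no entry. The starts of *Cdkn1a* and *Cdkn2a* are shown because, as described later, one start of each gene carried most of the peaks, and *Cdkn2b* is shown as the neighbour of *Cdkn2a*. The first sequence is the upstream start of *Cdkn1a* (chr17:29090729-29091028, plus strand), in which capitals mark matches to the p53 half-site consensus. In the other sequences capitals mark GC boxes, GGGCGG on either strand. They are the main start of *Cdkn1a* (chr17:29093519-29093818, plus strand), the *Arf* start (chr4:89294570-89294869, minus strand) and the *Ink4a* start (chr4:89282143-89282442, minus strand) of *Cdkn2a*, and *Cdkn2b* (chr4:89310983-89311282, minus strand), each printed 5′ to 3′ on the strand of the gene.
Cdkn1a upstream start: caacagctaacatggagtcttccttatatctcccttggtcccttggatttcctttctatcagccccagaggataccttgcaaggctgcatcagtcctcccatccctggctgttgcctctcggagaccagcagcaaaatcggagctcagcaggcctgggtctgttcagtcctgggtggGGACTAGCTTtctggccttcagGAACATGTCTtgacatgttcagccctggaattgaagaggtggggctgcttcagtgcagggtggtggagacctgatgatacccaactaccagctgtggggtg
Cdkn1a main start: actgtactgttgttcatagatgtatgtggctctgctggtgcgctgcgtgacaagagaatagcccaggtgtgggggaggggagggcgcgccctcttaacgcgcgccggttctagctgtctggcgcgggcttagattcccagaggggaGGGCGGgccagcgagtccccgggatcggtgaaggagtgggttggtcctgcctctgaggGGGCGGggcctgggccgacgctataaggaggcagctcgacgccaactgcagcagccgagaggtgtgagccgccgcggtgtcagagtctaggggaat
Cdkn2a Arf start: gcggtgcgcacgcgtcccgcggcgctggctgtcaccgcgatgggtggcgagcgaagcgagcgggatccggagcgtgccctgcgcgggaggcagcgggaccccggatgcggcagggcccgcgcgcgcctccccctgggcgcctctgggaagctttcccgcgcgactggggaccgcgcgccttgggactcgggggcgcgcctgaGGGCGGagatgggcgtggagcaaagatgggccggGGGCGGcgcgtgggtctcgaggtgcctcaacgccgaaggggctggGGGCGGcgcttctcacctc
Cdkn2a Ink4a start: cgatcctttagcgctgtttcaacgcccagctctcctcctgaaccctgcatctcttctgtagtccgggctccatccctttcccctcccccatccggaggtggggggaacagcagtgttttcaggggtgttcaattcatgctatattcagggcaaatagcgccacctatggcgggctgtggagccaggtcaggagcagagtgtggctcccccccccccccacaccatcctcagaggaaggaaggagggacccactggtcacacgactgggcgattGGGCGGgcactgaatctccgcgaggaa
Cdkn2b: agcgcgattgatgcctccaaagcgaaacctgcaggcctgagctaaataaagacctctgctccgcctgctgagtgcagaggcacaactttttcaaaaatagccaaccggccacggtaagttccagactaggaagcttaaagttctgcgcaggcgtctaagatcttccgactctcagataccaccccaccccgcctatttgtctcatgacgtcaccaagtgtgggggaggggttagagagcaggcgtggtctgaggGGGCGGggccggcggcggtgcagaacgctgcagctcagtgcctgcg

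The upstream *Cdkn1a* promoter held 2 CpG dinucleotides, with a ratio of observed to expected CpG of 0.0892, while the main promoter held 23, with a ratio of 0.786. The *Arf* promoter was 77% GC with a CpG ratio of 1.04, and the *Ink4a* promoter was 60.3% GC with a ratio of 0.442. The median over 20150 promoters was 57% GC and a ratio of 0.588. In both genes the start with the CpG-rich promoter was thus the one with the strong peak. A GC box was found in 8 of the 11 member promoters (47.8% of all promoters), CCAAT on either strand in 6 (37.8%) and the E2F motif TTTNNCGC in 3 (6.3%). The 3 promoters with the E2F motif were those of *Mdm2* and both starts of *Cdkn2a*. The p53 half-site consensus was found in 4 promoters (7.29%), once each at *Trp53*, *Mdm2* and *Cdkn2d* and with 2 matches, at −73 and −51 bases from the start, at the upstream *Cdkn1a* start. At *Cdkn2d* the match overlapped a GC box, and the CCAAT and GC boxes of the *Ink4a* promoter overlapped each other. The GFI1 motif AATCACNGC (1.02% of all promoters) and the NRF1 motif (1.38%) were found in none of the 11. These matches describe the letters of the sequence only.

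A promoter peak was present at 9 of the 10 members in every library, where 45.2% to 55.2% of protein-coding genes had one. It was present at 8 members in all 6 libraries, as it was at 43.4% of protein-coding genes. In the *GFI1-36S* curcumin library the 9 members held *Cdkn1c*, with a weak peak (rank 0.675), in place of *Cdkn2b*. To compare lists of different depth, each gene took the rank of its strongest promoter peak by fold enrichment within the library, from 0 (no peak) to 100 (the strongest). In bulk BM, fewer cells carrying the mark and less mark per cell cannot be told apart in such a value. The peaks of *Mdm2*, *Cdkn1b*, *Cdkn2c* and *Rb1* were strong in most libraries, those of *Cdkn2b* and *Cdkn1c* were weak or missing, and *Cdkn1a* had the widest range, from a rank of 9.83 to 90.3. Without the *GFI1-36S* curcumin library its range was 51.2 to 90.3, and that of *Cdkn2a*, from 14 to 62.8, was wider.

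**Figure D1:**
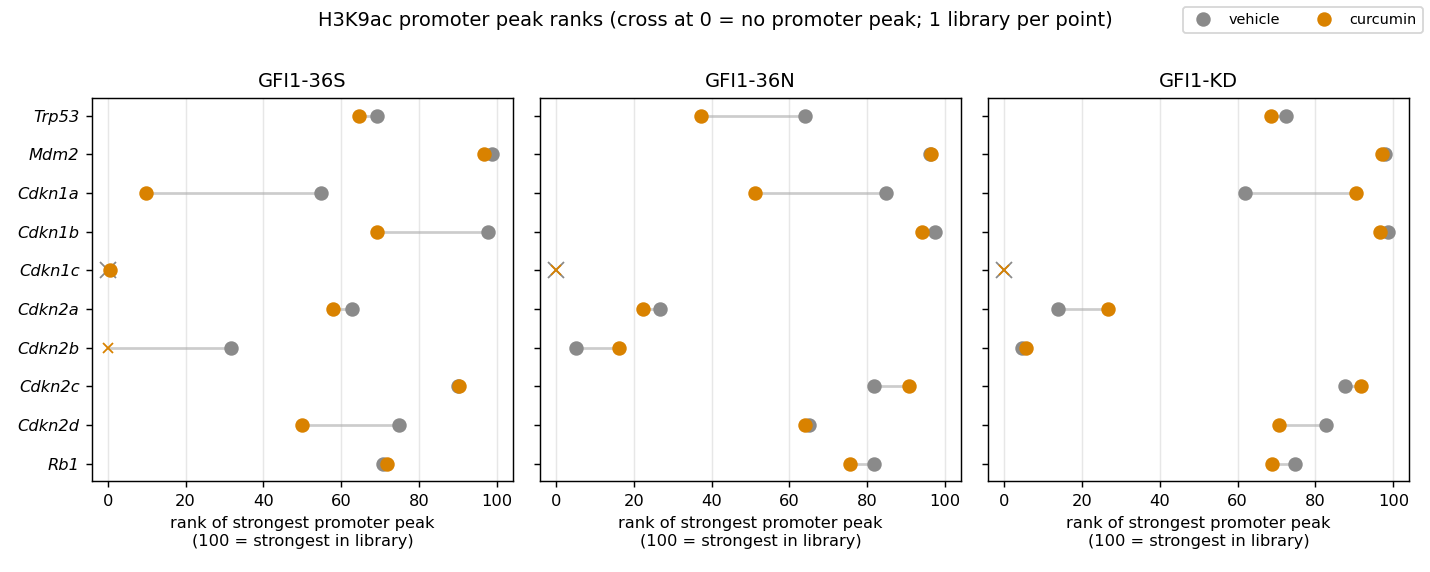
Rank of the strongest promoter peak of each member (x axis, 0 to 100 within each library) in the vehicle (grey) and curcumin (orange) library of each genotype, with a cross at 0 where no promoter peak was listed. *Mdm2* lies above 95 in all 6 libraries, whereas *Cdkn1a* moves to the left with curcumin in *GFI1-36S* and *-36N* mice and to the right in *GFI1-KD* mice.

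*Trp53* (chromosome 11, 69580359 to 69591873) had a peak over its first exon and first intron in all 6 libraries, with the summit in the intron, 635 to 939 bp downstream of the nearest start. Its fold enrichment over the local background was 24.9 (*GFI1-36S*), 20.6 (*-36N*) and 28.7 (*-KD*) in the vehicle libraries. With curcumin the values were 14.8, 17.1 and 24. The *GFI1-36N* curcumin library was low for its depth, since the median promoter had a curcumin to vehicle ratio of 1.21 in this pair and *Trp53* one of 0.828. Its rank was 64 (vehicle) and 37.2 (curcumin), a change of −26.8 points, and 1.15% of genes had a lower change. The summit itself held 150 fragments with vehicle and 146 with curcumin, and the median promoter 120 and 121. The fragments were thus nearly equal and the difference lay mostly in the local background by which they are divided. Ranked by −log10 p instead, the change was −13 points. The rank changed by −4.66 points in *GFI1-36S* and by −3.92 points in *GFI1-KD* mice, where its ratio to the median promoter was 1 and 0.966. The summed width of the *Trp53* promoter peaks was 5085 bp with vehicle and 5251 bp with curcumin in *GFI1-36N* mice, so the peaks were lower in fold enrichment but together not narrower. The same peak covered the start of *Wrap53*, the gene read in the opposite direction from the shared promoter, and the ranks of both genes were identical in all 6 libraries. The signal of the 2 genes cannot be told apart. An internal *Trp53* start at 69588695 had a weak peak with vehicle in *GFI1-36S* (fold enrichment 4.55) and *-KD* mice (4.12) and none in the other 4 libraries.

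*Mdm2* (chromosome 10, 117688875 to 117710758) had the steadiest strong peak. In the vehicle libraries, its fold enrichment was 39.6 (*GFI1-36S*), 33 (*-36N*) and 43.3 (*-KD*), and with curcumin it was 25.5, 38.2 and 37.4. In each library it ranked between 96 and 98.6, with a summit 119 to 143 bp downstream of a start, and its rank changed by −2.11, 0.408 and −0.748 points. Relative to the median promoter, the curcumin to vehicle ratio was 1.08 for *GFI1-36S* (95% interval 0.872 to 1.34), 0.957 for *-36N* (0.791 to 1.16) and 0.998 for *-KD* mice (0.837 to 1.19). These intervals take the recovered fragments of both summits as counts and cover counting error only, not the spread between mice. No difference was detectable for *Mdm2* at this depth.

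*Cdkn1a* (chromosome 17, 29090976 to 29100727) carried its peak downstream of the main start, with the summit in the first intron of the transcript that begins there, 898 to 1235 bp from the start. The fold enrichment of the vehicle libraries was 21.2 (*GFI1-36S*), 26.6 (*-36N*) and 25.3 (*-KD*). With curcumin it was 5.52, 21.3 and 31.8, so that the lowest and the highest value of all 6 were both from curcumin libraries. The summit fragments were 125 and 30 in the *GFI1-36S* pair, 184 and 122 in the *GFI1-36N* pair, and 184 and 191 in the *GFI1-KD* pair, vehicle first. In rank, the change with curcumin was −44.9 points in *GFI1-36S* mice (54.7 to 9.83), −33.6 points in *GFI1-36N* mice (84.9 to 51.2) and 28.5 points in *GFI1-KD* mice (61.8 to 90.3). Relative to the median promoter the ratios were 0.439 (0.284 to 0.658), 0.662 (0.522 to 0.837) and 1.45 (1.18 to 1.79), and none of these intervals included 1. In *GFI1-36N* mice, 0.397% of genes had a lower change in rank, and in *GFI1-KD* mice 99.3% did. The width of the peak was 2320 and 2434 bp in the *GFI1-36N* pair and 2324 and 2679 bp in the *GFI1-KD* pair, and 2330 and 707 bp in the *GFI1-36S* pair. As the summit lay about 1 kb from the start, the rule that asks for the summit itself inside the window dropped this peak in 5 of the 6 libraries, and the *GFI1-36N* change then became 51.4 points. With the summit allowed within 3 kb, an alternative chosen after seeing the data, the change was −32.9 points.

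The p53 half-site matches lie at the upstream *Cdkn1a* start (29090976 to 29090979), and this start had a peak in 1 library, *GFI1-36S* vehicle, with a fold enrichment of 5.39 and 31 summit fragments. A start at 29097900 had weak peaks in 4 libraries, with fold enrichments of 3.38 to 5.81. A further peak lay outside the gene, with its summit at −9158 to −9070 bp from the first start and no annotated start within 1 kb. The vehicle libraries had a fold enrichment of 10.1 (*GFI1-36S*), 12.8 (*-36N*) and 9.04 (*-KD*) there, and the curcumin libraries 14.4 (*-36N*) and 12.4 (*-KD*). No peak was listed there with curcumin in *GFI1-36S* mice. In the *GFI1-36N* pair this upstream summit held 88 fragments with vehicle and 82 with curcumin, where the promoter summit held 184 and 122, and the difference between the 2 peaks was not tested. The main *Cdkn1a* peak also covered *AC167363.2*, a transcript annotated as still to be experimentally tested.

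**Figure D2:**
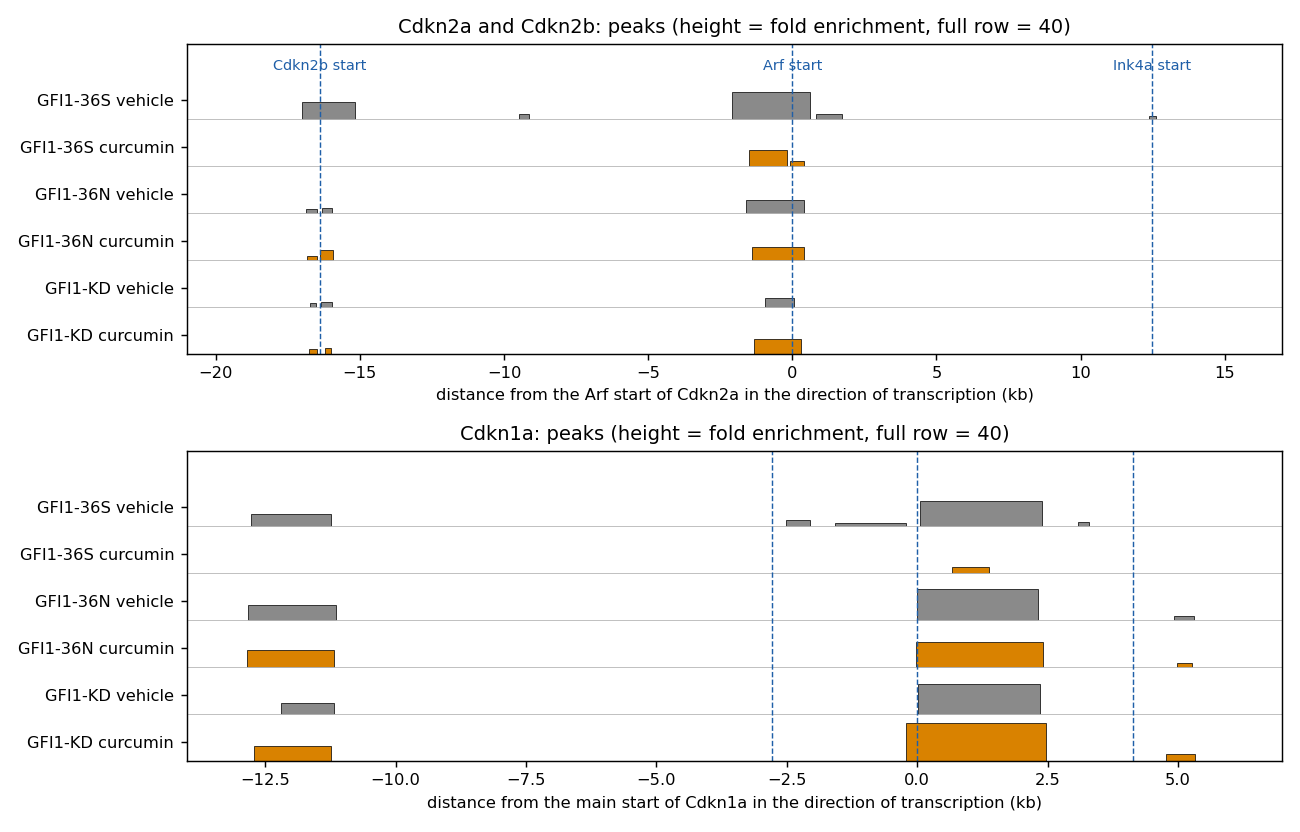
Peaks at *Cdkn2a* and *Cdkn2b* (upper) and *Cdkn1a* (lower) by distance in kb from the *Arf* start or the main *Cdkn1a* start, in the direction of transcription, with 1 row per library (vehicle grey, curcumin orange). The height of a box is the fold enrichment, with a full row at 40, and dashed lines are annotated starts. The *Arf* start has a peak in every row and the *Ink4a* start a small one in the first row only.

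*Cdkn1b* (chromosome 6, 134920401 to 134925513) had fold enrichments of 38, 34.8 and 44.7 with vehicle in *GFI1-36S*, *-36N* and *-KD* mice, and 15.7, 36 and 36.8 with curcumin. Its summit lay in the first exon in all 6 libraries. It ranked between 94 and 98.6 in 5 libraries and at 69.1 in the *GFI1-36S* curcumin library. The *GFI1-36S* ratio relative to the median promoter was 0.695 (0.536 to 0.894), while the intervals of the *GFI1-36N* (0.707 to 1.03) and *-KD* pairs (0.797 to 1.13) included 1. Downstream of the gene, broad peaks at the starts of the long non-coding RNA *Lockd* and of *Gm44238* were present in all 6 libraries, with a highest fold enrichment of 17.5 to 36.8. *Cdkn1c* (chromosome 7, 143458339 to 143461050), an imprinted gene, had a promoter peak in the *GFI1-36S* curcumin library alone. That peak was 231 bp wide with 17 summit fragments, a fold enrichment of 3.21 and a rank of 0.675. A peak about 4 kb upstream of *Cdkn1c* was listed in 4 libraries, with fold enrichments between 3.37 and 8.31.

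In *Cdkn2a* (chromosome 4, 89274471 to 89294653), the *Arf* start at 89294653 had a peak in all 6 libraries, with its summit at −440 to −353 bp from the start. The *Ink4a* start at 89282192 had one in the *GFI1-36S* vehicle library only, with 16 summit fragments and a fold enrichment of 2.87. The ranks of *Cdkn2a* given here therefore describe the *Arf* start. Given as vehicle and curcumin, its fold enrichment was 23.2 and 13.7 in *GFI1-36S*, 11.2 and 10.9 in *-36N*, and 7.26 and 12.6 in *-KD* mice. Both *GFI1-36S* libraries ranked it above the other 4, at 62.8 and 57.9 against 14 to 26.7, although the second of them is the library that stood apart. Between the vehicle libraries, the ratio relative to the median promoter was 0.552 (0.412 to 0.735) for *GFI1-36N* over *-36S* and 0.282 (0.201 to 0.391) for *-KD* over *-36S*. Only 0.332% and 0.0569% of genes had a lower change in rank in these 2 comparisons, which share the *GFI1-36S* vehicle library. With curcumin, the *GFI1-KD* rank was higher by 12.7 points, with a ratio of 2 (1.39 to 2.91) and a width of 1636 bp against 1014 bp. In *GFI1-36S* and *-36N* mice the ratios were 0.995 (0.742 to 1.33) and 0.804 (0.566 to 1.14).

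*Cdkn2b* (chromosome 4, 89306299 to 89311039), the neighbour of *Cdkn2a*, had a clear peak in 1 library, *GFI1-36S* vehicle, with 86 summit fragments, a fold enrichment of 14.6 and a rank of 31.6. No promoter peak was listed in the curcumin library of this genotype. The other 4 libraries each had 2 narrow peaks, 1 on either side of a gap at the start. In *GFI1-36N* mice the stronger of the 2 had a fold enrichment of 4.03 (vehicle) and 7.96 (curcumin), with ranks of 5.15 and 16.3. In *GFI1-KD* mice the values were 3.99 and 4.65, with ranks of 4.67 and 5.65. With 27 and 45 fragments, the *GFI1-36N* ratio relative to the median promoter was 1.63 (0.992 to 2.74), and the interval included 1. Between the vehicle libraries the ratio to *GFI1-36S* was 0.315 (0.196 to 0.49) for *-36N* and 0.245 (0.154 to 0.38) for *-KD* mice, so that *Cdkn2a* and *Cdkn2b* were both higher in the library labelled *GFI1-36S* vehicle. Were the treatments of this pair exchanged, its vehicle library would rank *Cdkn2a* at 57.9 and hold no *Cdkn2b* peak, and the direction for *Cdkn2b* would turn. Each genotype had a single vehicle library, and mouse and genotype cannot be told apart.

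*Cdkn2c* (chromosome 4, 109660876 to 109667189) had broad peaks of 3919 to 5511 bp that covered both of its starts. Its ranks with vehicle were 90, 81.7 and 87.7 in *GFI1-36S*, *-36N* and *-KD* mice, and 90.3, 90.8 and 91.8 with curcumin. All 3 ratios relative to the median promoter were above 1 (1.12, 1.1 and 1.09), and all 3 intervals included 1. *Cdkn2d* (chromosome 9, 21288410 to 21291407) ranked at 74.9, 64.9 and 82.6 with vehicle and at 49.9, 63.9 and 70.6 with curcumin. Its signal was split by a gap at the start into a gene-side and an upstream peak in 5 libraries. In *GFI1-KD* vehicle it was a single peak of 6063 bp that also reached *Kri1*. In the *GFI1-36S* pair the strongest peak was the gene-side one with vehicle (fold enrichment 26.5) and the upstream one with curcumin (12.5). The 2 widths, the rank change and the ratio of this pair thus describe different pieces. Piece by piece, vehicle first, the fold enrichment was 26.5 and 11 on the gene side and 18.7 and 12.5 upstream. The gene-side summits held 157 and 61 fragments and the upstream ones 110 and 69. The median promoter had a ratio of 0.594 in this pair. None of the *Cdkn2d* intervals, taken from the strongest peaks, left out 1, but no interval was computed for either *GFI1-36S* piece alone.

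*Rb1* (chromosome 14, 73183673 to 73325822), which encodes the pocket protein that the CDKs inactivate, had its peak at the first start, with fold enrichments of 25.2, 25.4 and 29.4 with vehicle and 16.1, 28 and 24.1 with curcumin in *GFI1-36S*, *-36N* and *-KD* mice. Its rank stayed between 68.9 and 81.7, and the changes were 0.851, −6.08 and −5.88 points. A second peak at an internal start at 73239786 had fold enrichments of 10.1 to 22.7. In 5 libraries it also covered the start of *Lpar6*, a receptor gene nested inside *Rb1*, so this peak cannot be assigned to *Rb1*.

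Across the members, curcumin was compared with vehicle in each genotype by counting ranks that differed by 10 points or more. In *GFI1-36S* mice, 4 of 10 members were lower (*Cdkn1a*, *Cdkn1b*, *Cdkn2b* and *Cdkn2d*), where 41.6% of all genes with a promoter peak in either library were, and none was higher (14.7%). *Cdkn2b* lost its peak (16.5% of genes lost one) and *Cdkn1c* gained one (2.03%). The median change of the members was −4.79 points, against −6.73 for all genes. The fold enrichment relative to the median promoter was lower beyond counting error at 2 members, *Cdkn1a* and *Cdkn1b* (13.9% of genes), and higher at none (16.1%). The share of members lower by 10 points or more was near that of all genes. In this pair the T-cell and myeloid markers differed as given at the start. The part of cell type in these changes was not tested.

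In *GFI1-36N* mice, 2 of 9 members were lower by 10 points or more, *Trp53* and *Cdkn1a* (11% of genes), and 1 was higher, *Cdkn2b* (19.5%). No member lost (1.84%) or gained (5.93%) its peak. The median change was −3.38 points for the members and 1.98 points for all genes. The interval of relative fold enrichment lay below 1 at *Trp53* and *Cdkn1a* (7.52% of genes) and above 1 at no member (7.39%). These intervals take the local background as known. At *Trp53* the summit held 150 fragments with vehicle and 146 with curcumin. Its difference thus lay mostly in that background, whose error the interval does not cover. The 12 neutrophil markers had a peak in both libraries, while the median rank of the 6 monocyte markers was 55.3 with vehicle and 33.3 with curcumin. Peaks were present at 8 progenitor markers with vehicle and 6 with curcumin, *Meis1* and *Mycn* being without one, although their median rank was 14.7 and 21.2. Erythroid markers had 10 and 9 peaks with a median rank of 5.75 and 13, T-cell markers 7 and 6 (4.8 and 0.959), and B-cell markers 3 and 2. The median neutrophil rank was 11.4 and 13.6. The part of these markers in the *Cdkn1a* and *Trp53* values was not tested.

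In *GFI1-KD* mice, 1 of 9 members was lower by 10 points or more, *Cdkn2d* (20.7% of genes), and 2 were higher, *Cdkn1a* and *Cdkn2a* (9.38%). No member lost (6.79%) or gained (1.25%) its peak. The median change was −0.748 points for the members and −2.37 points for all genes. Relative fold enrichment was lower beyond counting error at none (8.6%) and higher at the same 2 genes, *Cdkn1a* and *Cdkn2a* (8.37%). Peaks were present at 12 neutrophil markers with vehicle and 8 with curcumin, at 12 and 5 erythroid markers, and at all 6 monocyte markers. The median rank was 22 and 8.97 for neutrophil, 22.5 and 0 for erythroid, 25.1 and 47.1 for monocyte and 11.8 and 13 for progenitor markers. All 8 progenitor markers had a peak in both libraries, T-cell markers had 5 and 4, and B-cell markers 5 and 3. The part of these markers was not tested here either.

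Over the 3 genotypes together, curcumin was compared with vehicle by limma on log2 fold enrichment, with genotype as a block, for the 9523 genes with a promoter peak in all 6 libraries, which include 8 members. With 2 residual degrees of freedom, no gene passed an adjusted p of 0.05 (0%), and 489 genes, 5.13%, had an unadjusted p below 0.05. The adjusted p of the members was between 0.865 and 0.983. Relative to the median gene, *Cdkn1a* changed by −0.40 ± 0.31 (SE) on the log2 scale and *Cdkn2a* by 0.24 ± 0.26. The *Cdkn1a* value was −0.03 ± 0.27 without the *GFI1-36S* pair and −0.88 ± 0.23 without the *GFI1-KD* pair (limma, adjusted p = 0.699). No member passed this test.

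**Figure D3:**
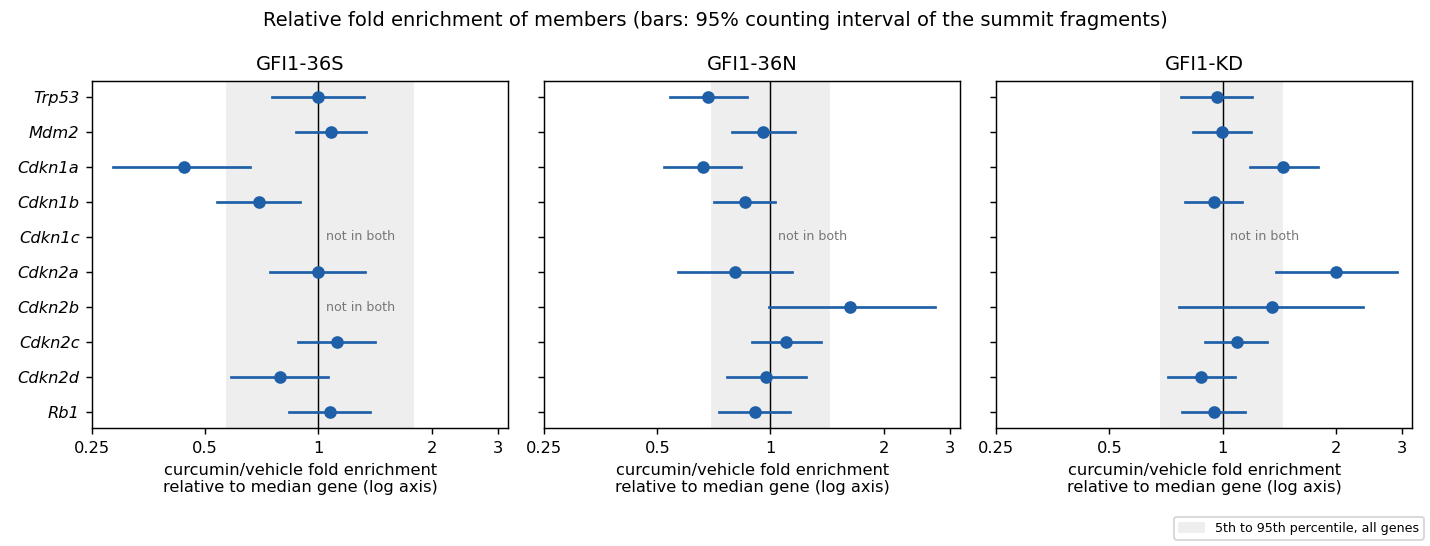
Curcumin to vehicle ratio of fold enrichment at each member, relative to the median promoter of the pair (x axis, log scale), with 95% intervals that cover the counting error of the summit fragments. Grey bands span the 5th to 95th percentile of all genes. *Cdkn1a* lies below the band in *GFI1-36S* and *-36N* mice (0.439 and 0.662), as does *Trp53* in *GFI1-36N* mice (0.684), where *Cdkn2b* lies above it (1.63), and at its upper edge in *GFI1-KD* mice (1.45), where *Cdkn2a* lies above it (2).

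In width, the strongest promoter peak was narrower with curcumin at 8 of the 8 members measured in both *GFI1-36S* libraries (94.4% of all genes). It was narrower at 5 of 9 in *GFI1-36N* (38.9%) and at 7 of 9 in *GFI1-KD* mice (87.9%). A signal split in only 1 library of a pair is thus measured as a piece against a whole. Examples are *Cdkn2d* in *GFI1-KD* mice (6063 and 2976 bp, with 3766 bp summed with curcumin) and *Trp53* in *GFI1-36N* mice (3175 and 5251 bp, with 5085 bp summed with vehicle). The 2 members that widened in *GFI1-KD* mice were *Cdkn1a* (ratio 1.15) and *Cdkn2a* (1.61), which were also the 2 with a relative fold enrichment higher beyond counting error. Here 95.9% and 98.9% of genes had a lower width ratio, against a median of 0.815. Width and fold enrichment were read from the same peaks, so these values are not independent of each other.

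The wider pathway was read from 42 other p53 pathway genes and from 32 other cyclin, CDK and Rb family genes. Of the p53 pathway genes, 38 had a promoter peak in at least 1 library and 32 in all 6, where 43.4% of all protein-coding genes had one in all 6. In *GFI1-36S* mice 20 of 36 were lower by 10 points or more (41.6% of all genes) and 4 higher (14.7%), with a median of −14.5 points against −6.73 for all genes. The 4 of these 36 that had lost the peak were *Perp*, *Plk2*, *Pmaip1* and *Tigar*, where 16.5% of all genes lost one. In *GFI1-36N* mice 4 of 38 were lower (11% of all genes) and 8 higher (19.5%), with a median of 1.22 points against 1.98. In *GFI1-KD* mice 6 of 38 were lower (20.7%) and 2 higher (9.38%), with a median of −2.88 points against −2.37. *Tnfrsf10b*, which encodes a TRAIL receptor, gained a weak peak in *GFI1-36N* mice, a change of 1.07 points (5.93% of all genes gained one). It lost its peak in *GFI1-KD* mice (−8.60 points), as did the p53 relative *Trp73* (−0.36 points), where 6.79% of all genes lost one. *Pmaip1*, which encodes the BH3-only protein NOXA, had the lowest change in *GFI1-36S* mice, where it ranked at 93.4 with vehicle and had no peak with curcumin, and the highest in *GFI1-KD* mice (74.6 to 97.9). *Gtse1*, a p53 inhibitor expressed in G2, had the highest change in *GFI1-36S* mice (27.6 to 72.7). In *GFI1-36N* mice the extremes were *Btg2*, an anti-proliferative p53 target (95.7 to 64.5), and *Gadd45a*, a DNA damage response gene (49.5 to 79), and in *GFI1-KD* mice the lowest was the p53-induced nuclease *Aen* (51.7 to 22.8).

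Of the cyclin, CDK and Rb family genes, 31 of 32 had a peak in all 6 libraries (43.4% of all protein-coding genes). The exception was *Ccnd1*, lost in *GFI1-KD* mice, where 6.79% of all genes lost a peak. Of the *GFI1-36S* ranks, 8 were lower (41.6% of all genes) and 12 higher (14.7%), with a median of 5.28 points against −6.73 for all genes. The *GFI1-36N* counts were 3 lower (11%) and 10 higher (19.5%), with a median of 5.15 points against 1.98. The *GFI1-KD* counts were 13 lower (20.7%) and 2 higher (9.38%), with a median of −5.58 points against −2.37. *Ccnd2*, which encodes cyclin D2, had the lowest change in *GFI1-36S* (49 to 0.675) and in *GFI1-KD* mice (47.7 to 5.65). *Ccnd3*, which encodes cyclin D3, had the lowest in *GFI1-36N* mice (80.2 to 45.1), but its change was −2.06 points when the window was 3 kb. The highest changes were at the mitotic cyclin *Ccnb1* in *GFI1-36S* (57.3 to 90.7), *E2f3* in *-36N* (58.6 to 90) and *Cdk6* in *-KD* mice (77.5 to 90).

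**Figure D4:**
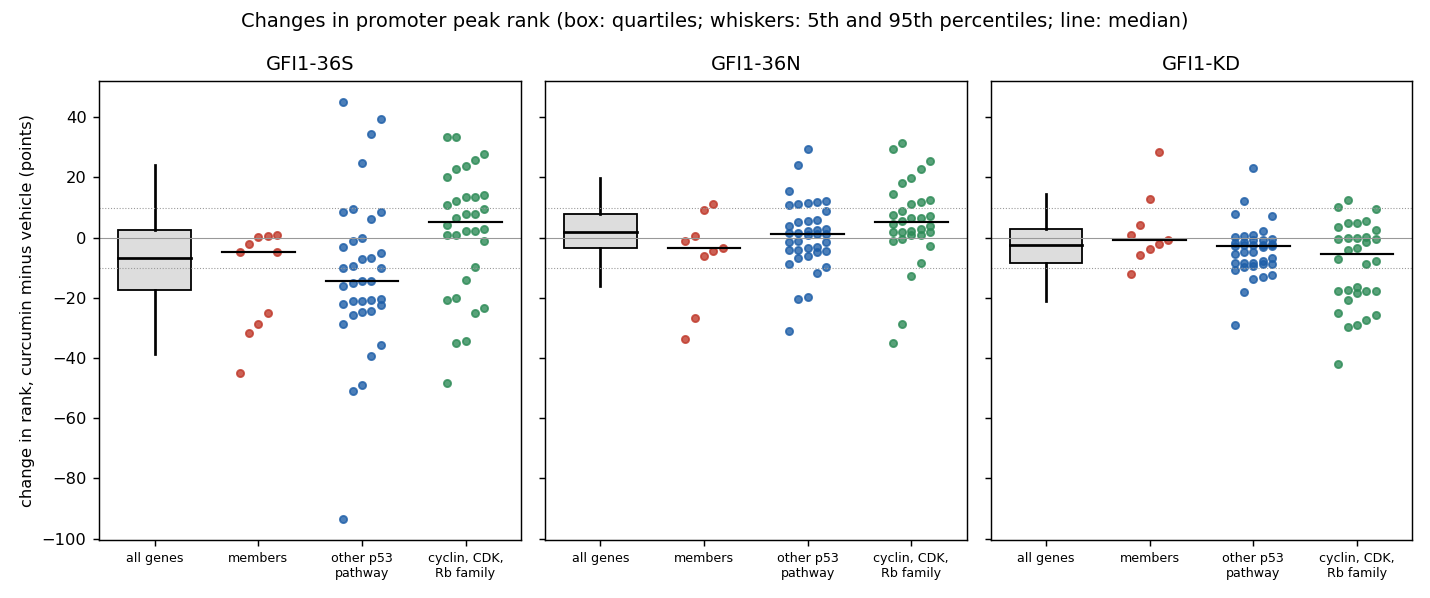
Change in rank with curcumin (y axis, points) for all genes (box with quartiles, whiskers at the 5th and 95th percentiles) and for each member and each gene of the wider lists (points, with a line at the median). The median of the cyclin, CDK and Rb family is 5.28 points for *GFI1-36S*, 5.15 for *-36N* and −5.58 for *-KD* mice, and dotted lines mark 10 points in either direction.

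Genes with the most similar ranks over the 6 libraries were looked up for the 8 members with a peak in all of them, by the mean absolute difference in rank. Apart from *Wrap53* for *Trp53* (difference 0), the closest were *Ift46* for *Mdm2* (0.59), *Spag9* for *Cdkn1b* (0.899), *Map2k4* for *Cdkn2c* (1.51), *Cks1b* for *Cdkn2d* (2.03) and *Slc7a1* for *Rb1* (2.56). For *Cdkn1a* it was *Il6ra*, the interleukin-6 receptor gene (3.09), which ranked at 43.2, 86.6 and 59.4 with vehicle and at 10.6, 51.2 and 92.3 with curcumin. No gene was close to *Cdkn2a*, where the nearest, *Smyd3*, differed by a mean of 8.7 points.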

How the data were processed

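H3K9ac ChIP-seq of frozen BM cells was analysed in 6 libraries, 1 per genotype and treatment. Of the 8 samples labelled, an input (*GFI1-36S*) and a rabbit IgG sample (*GFI1-36N*) were not used here. Per the methods of the authors, adapters were trimmed (Trim Galore), alignment to mm10 used BWA-MEM, each library had its own MACS2 peak calling, and ENCODE black list regions were left out. The control of each list, the threshold, duplicate handling and versions are not given in the sources used here. The deposited fold enrichment is a ratio, summit fragments over the background estimated nearby, and the deposited −log10 p, −log10 q and integer score are those of the peak caller. None is normalised between libraries.

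TSSs came from GENCODE M21 (same assembly) and were joined to the peaks with pandas 2.3.3, scipy 1.17.1 and numpy 2.4.6 in Python 3.11.15. Promoter peaks overlapped 1000 bp around any TSS of a protein-coding gene by at least 1 bp. The strongest was ranked by fold enrichment within its library, and a gene without one had rank 0. Shares of genes refer to those with a promoter peak in either library, and ratios to those with one in both. Fragments at the summit were recovered from the formulas of MACS2 for fold enrichment and p within 0.002 on the −log10 p scale, for 100% of promoter peaks. Exact conditional 95% intervals of their ratio, scaled to the fold enrichment ratio and divided by the median ratio of the pair, cover counting error only and take the local background as known. The fit over the 3 genotypes used limma 3.58.1 in R 4.3.3 with Benjamini-Hochberg adjustment over all genes tested, each library centred on its median gene, and was added after seeing the data. Peaks outside promoters were searched within 10 kb of each gene. The steps were tested on simulated data.

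The members and gene lists were chosen with earlier results of these data known. All members are named, with the genes sharing their peaks, the largest rise and fall of each wider list and the closest gene in rank. Genes of the wider lists that lost or gained a peak were named after their values were seen. The alternatives tried were a window of 3 kb, lists cut to their 20354 strongest peaks, a minimum −log10 q of 5, an overlap of 200 bp, the summit inside the window, ranks by −log10 p, genes of all biotypes and, for *GFI1-36S*, the treatments exchanged. The basic transcript set and the summit within 3 kb were chosen after seeing the data.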

Additional observations from a re-analysis of the deposited data

Results flagged for a closer look

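The change in rank of *Cdkn1a* with curcumin went in opposite directions between genotypes. It was −44.9 points in *GFI1-36S* and 28.5 points in *GFI1-KD* mice, a difference of −73.4 points, and −33.6 points in *GFI1-36N* mice, a difference of −62.1 points from *GFI1-KD*. *Cdkn2b* changed by −31.6 points in *GFI1-36S* and by 11.2 points in *GFI1-36N* mice, a difference of −42.8 points. With 1 library per group these differences between genotypes were not tested, and those of *GFI1-36S* use the curcumin library that stood apart in its cell type markers.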

How the results depend on the processing

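The number of members with a promoter peak in both libraries (8, 9 and 9 in *GFI1-36S*, *-36N* and *-KD*) stayed within 1.5 times of its value under every alternative run. The median change of the members kept its sign except with the *GFI1-36S* treatments exchanged, and moved by over 1.5 times with the summit inside the window (*GFI1-36N* −1.03), a window of 3 kb (*GFI1-36N* −2.08), the summit within 3 kb (*GFI1-36N* −2.06), the top peaks (*GFI1-36S* −2.35) and an overlap of 200 bp (*GFI1-KD* −1.35). With that exchange, the median was 4.79 points, 0 members were lower and 4 higher, and the changes became 44.9 (*Cdkn1a*), 28.6 (*Cdkn1b*), 31.6 (*Cdkn2b*) and 25 points (*Cdkn2d*). With the summit inside the window, the *GFI1-36N* counts were 1 lower and 2 higher, the *GFI1-KD* count of higher members was 1, and *Cdkn1a* changed by 51.4 points in *GFI1-36N*, −9.34 in *-36S* and 9.27 in *-KD* mice. Here the *Cdkn1a* summit lay inside 1 kb in the *GFI1-36N* curcumin library only. With the summit within 3 kb, the *Cdkn1a* changes were −45.2, −32.9 and 27.9 points. With the top peaks alone, the *GFI1-36N* count of higher members was 0, and with ranks by −log10 p the *GFI1-KD* count of lower members was 0. The count of 0 in *GFI1-36N* mice rests on *Cdkn2b* (8.15 points) and that in *GFI1-KD* mice on *Cdkn2d* (−7.9 points). *Trp53* in *GFI1-36N* mice was between −30.4 and −13 points. In the limma fit over the 3 genotypes, which pairs the libraries by genotype and was added after seeing the data, 0 genes passed under each of the 4 alternatives (293 to 549 with an unadjusted p below 0.05). With the *GFI1-36S* treatments exchanged, the log2 changes turned to 0.36 (*Cdkn1a*), 0.06 (*Cdkn1b*), 0.03 (*Cdkn2d*) and −0.07 (*Mdm2*). Without the *GFI1-36S* pair *Mdm2* turned to −0.03, without the *GFI1-36N* pair *Rb1* turned to 0.04 and *Trp53* to 0.01, and without the *GFI1-KD* pair *Cdkn2a* turned to −0.15. The cause was not tested. The promoter peaks of *Cdkn1c* (17 fragments) and *Ink4a* (16), each in 1 library, and those of *Cdkn2b* outside *GFI1-36S* vehicle (27 to 45) are weak, which limits what a missing peak can show.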
